A study of Mus musculus with 6 samples.

Results

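Transcripts of photoreceptor transcription factors were followed in mouse retina through every probe set that the platform annotation assigns to exactly 1 of 10 genes: Otx2, Crx, Nrl, Nr2e3, Esrrb, Rorb, Neurod1, Thrb, Rxrg and Mef2c. The rule gave 19 probe sets for 9 of the 10 genes, among 45037 probe sets other than controls that cover 18193 genes. Nr2e3, the rod receptor that silences cone genes, was not analysed here. Retinas came from BALB/c AJ mice at postnatal day 40, freed of the pigment epithelium. They were either wt/wt (3 arrays) or labelled ko/ko (3 arrays) for Nxnl2, a thioredoxin-like gene of photoreceptors. Markers of the pigment epithelium still gave signal: Rpe65 read 9.54 to 10.82 (log2) over wild type and knockout replicates 1 and 2. The labels name no other allele, agent or treatment, and give neither how the allele was made nor how many animals, or of which sex, entered a sample. It is thus unknown whether replicates were separate animals, and every p-value speaks only to the scatter among these 6 samples, part or all of which may be technical.

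Photoreceptor identity rests on a small network of DNA-binding proteins. OTX2 commits progenitors to the photoreceptor fate and switches on Crx, and the CRX homeodomain protein then activates most genes of the phototransduction machinery. RORB acts upstream of NRL, the leucine zipper protein without which rods become cone-like, and ESRRB supports rod gene expression and rod survival, while NEUROD1 keeps photoreceptors alive in the adult. In cones, the thyroid hormone receptor encoded by Thrb and its partner RXRG pattern opsin choice, and MEF2C belongs to the MADS-box family, which also acts in muscle, vessels and microglia.

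Transcript amounts are compared between arrays only. Levels of different probe sets are set side by side only to rank the probe sets of a gene by brightness and to judge background. Values are log2 intensities summarised per probe set, so a difference of 1 is a 2-fold difference in signal. No detection calls come with them, and the highest of 27 Bacillus control probe sets on each array, which match no mouse transcript (4.13 to 4.60 over the 6 arrays), was taken as the level below which a signal cannot be told from background. The 1 array titled as knockout replicate 3 is given apart and called the array labelled knockout replicate 3, because Nxnl2 went against its label. Its brighter Nxnl2 probe set read 9.21 there, 3.78 and 3.73 in knockout replicates 1 and 2, and 11.42 ± 0.04 (SD, n = 3) in wild type. Rod signal was near background in it, where rod transducin (Gnat1) read 4.23, just over the highest control of that array (4.13), and 14.16 ± 0.01 (SD, n = 5) in the other arrays. Some markers of other retinal cells kept signal there, but many fell as well. Glul of Müller glia read 11.41 and Gad1 of amacrine cells 8.71, against 12.50 and 11.35 in the other arrays. Glul was chosen after its values were seen. Müller markers went both ways, with Aqp4 1.64 above the mean of the other arrays and Rlbp1 5.11 below it. Which cells gave these signals was not tested. Against the mean of those arrays, a drop of over 2 was found in 6 of 7 bipolar and 5 of 6 ganglion markers. The same held for 3 of 4 horizontal, 4 of 8 amacrine and 2 of 7 Müller markers. At or under the highest control of that array were 2 bipolar, 2 horizontal and 1 amacrine marker, and 0 ganglion or Müller markers. Wild-type replicate 2 stood apart by its lens markers: the median of 8 lay 1.79 above the wild-type mean there and between -0.93 and -0.78 in the other 4 arrays. The main comparison therefore sets 3 wild-type arrays against knockout replicates 1 and 2, and the comparison of all 6 arrays follows it. With so few arrays, precision is limited throughout.

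Reference sequence upstream of 5 of these genes is shown because their transcripts were the ones that lay far lower in the array labelled knockout replicate 3, and because several of the proteins bind each other's promoters. The windows are the 250 bases before an annotated start site, written 5′ to 3′ on the gene's strand, from RefSeq on GRCm38.p6. For Rorb and Esrrb the more upstream of their windows is printed. All 9 measured genes had at least 1 window, 18 in all. Capitals mark the letters TAATCC (bound by CRX and OTX2), TGCTGA (part of the element bound by NRL), AGGTCA (the core bound by nuclear receptors such as RORB, ESRRB, THRB and RXRG), the MEF2 element and CAGATG (an E-box of the kind bound by NEUROD1), on either strand.
Crx, chr7:15879956-15880205, minus strand: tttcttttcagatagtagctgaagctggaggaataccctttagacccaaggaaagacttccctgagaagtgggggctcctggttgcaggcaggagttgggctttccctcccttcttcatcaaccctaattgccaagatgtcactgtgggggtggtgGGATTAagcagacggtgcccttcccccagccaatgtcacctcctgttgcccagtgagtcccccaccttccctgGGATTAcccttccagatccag
Nrl, chr14:55524253-55524502, minus strand: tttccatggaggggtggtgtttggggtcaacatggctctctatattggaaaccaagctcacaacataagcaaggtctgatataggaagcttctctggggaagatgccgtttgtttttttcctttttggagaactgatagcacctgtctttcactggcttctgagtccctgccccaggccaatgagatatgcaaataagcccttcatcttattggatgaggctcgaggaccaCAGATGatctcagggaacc
Neurod1, chr2:79456637-79456886, minus strand: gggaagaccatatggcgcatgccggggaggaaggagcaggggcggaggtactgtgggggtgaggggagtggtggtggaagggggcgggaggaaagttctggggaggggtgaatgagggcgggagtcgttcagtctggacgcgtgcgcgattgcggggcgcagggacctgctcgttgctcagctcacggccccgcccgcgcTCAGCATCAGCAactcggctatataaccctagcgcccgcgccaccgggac
Rorb, chr19:19111197-19111446, minus strand: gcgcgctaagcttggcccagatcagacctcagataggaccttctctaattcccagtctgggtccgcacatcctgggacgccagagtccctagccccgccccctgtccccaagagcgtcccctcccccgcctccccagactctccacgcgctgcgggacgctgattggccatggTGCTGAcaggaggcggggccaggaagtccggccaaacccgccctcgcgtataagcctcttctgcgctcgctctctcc
Esrrb, chr12:86360867-86361116, plus strand: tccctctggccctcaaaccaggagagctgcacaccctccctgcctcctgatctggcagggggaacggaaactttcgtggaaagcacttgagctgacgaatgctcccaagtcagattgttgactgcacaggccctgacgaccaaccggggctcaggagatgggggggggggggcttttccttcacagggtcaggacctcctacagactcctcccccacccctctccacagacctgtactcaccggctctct
The Crx window held TAATCC at 94 and 21 bases before the start site, printed as its reverse complement GGATTA. The Neurod1 window held TGCTGA at 50 and 44 bases before the start, side by side and printed as TCAGCA, and the Rorb window held it at 77. The Nrl window held CAGATG at 19 bases before the start, and the Esrrb window printed here held none of the 5 motifs. Over the 18 windows, TAATCC stood in 3 (Crx, Otx2 and Thrb), where 6.25% of all 32851 windows of the table hold it. TGCTGA stood in 4 (16.1% of all windows), AGGTCA in 4 (14.0%), CAGATG in 3 (14.4%) and the MEF2 element in 0 (3.2%). No match of one motif overlapped a match of another in these windows. These are matches of letters, not measured binding sites.

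No measured factor passed the test between wild type and knockout replicates 1 and 2. In the 5 arrays, 0 of 19 reached an adjusted p under 0.05 by limma over all probe sets, where 0.0111% of all probe sets passed. At an unadjusted p under 0.05 stood 2 of 19, both lower (3.05% of all probe sets stood there, and 1.61% were lower). Changes ran from -0.52 to 0.18 on the log2 scale with a median of -0.04, beside a median of 0.00 over all probe sets. Of the 19, 12 lay below 0 and 7 above, where 48.6% of all probe sets lay below. Groups did not overlap for 2 probe sets, 1 of Esrrb and 1 of Rorb, both lower in the knockout, and 0 were higher without overlap. Of all probe sets 16.3% had groups without overlap, 7.86% lower and 8.4% higher. In these bulk samples, fewer cells of a type and less RNA per cell cannot be told apart.

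**Figure D1:**
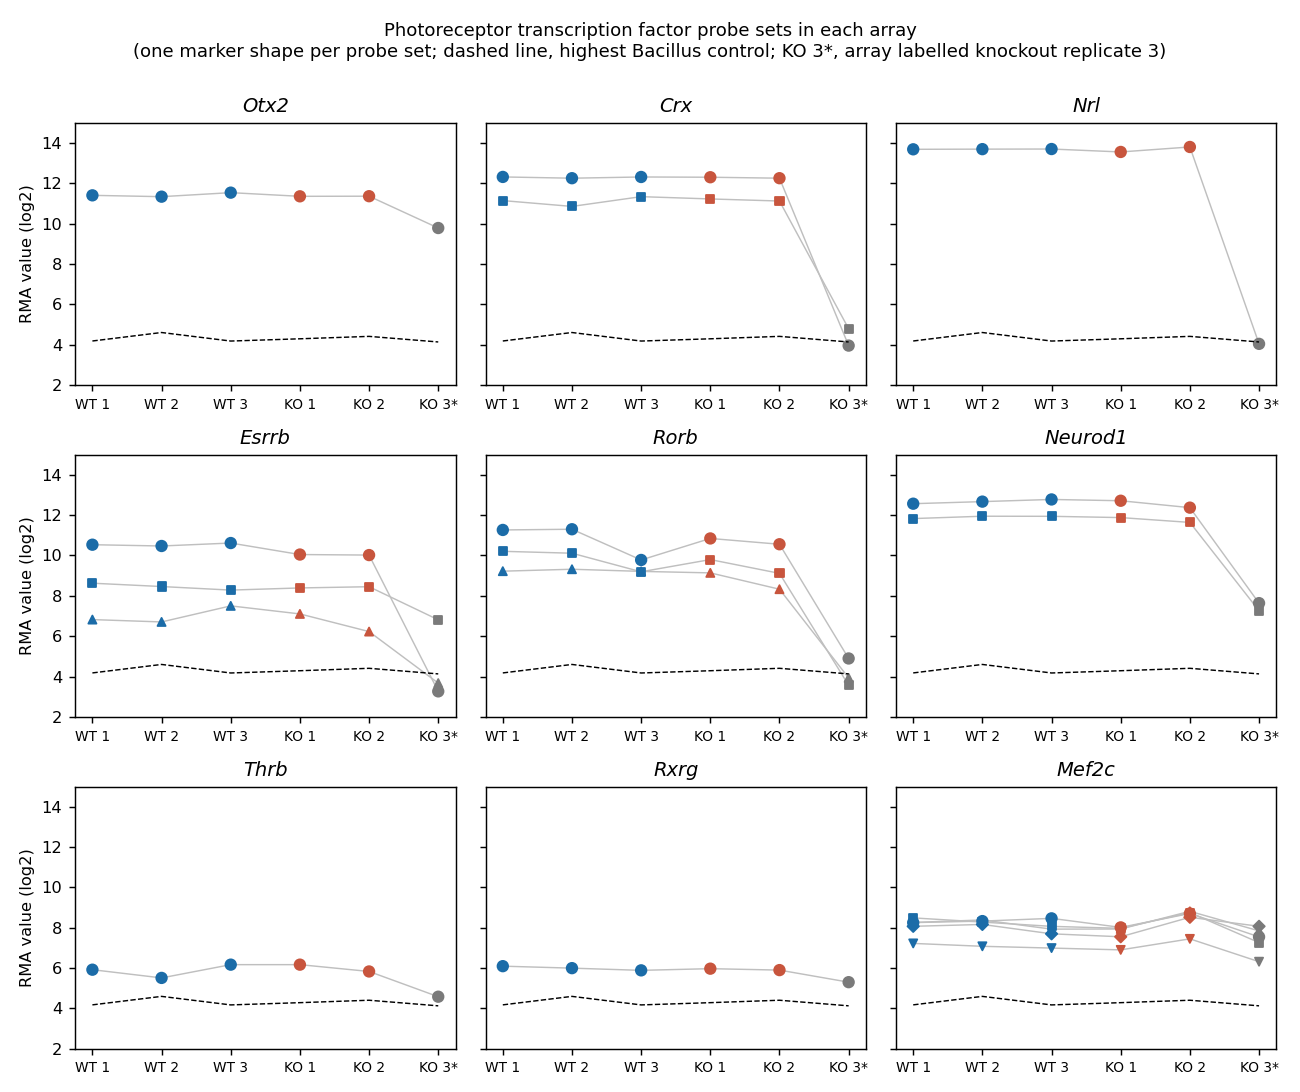
RMA values (log2) of the 19 probe sets in each of the 6 arrays, 1 panel per gene and 1 marker shape per probe set, with lines joining the values of a probe set; blue is wild type, red knockout replicates 1 and 2, grey the array labelled knockout replicate 3, and the dashed line the highest Bacillus control. Nrl stays between 13.55 and 13.79 in 5 arrays and reads 4.04 in the array labelled knockout replicate 3, while Otx2 reads 9.78 and Mef2c (brightest probe set) 7.55 there.

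Otx2 and Crx, which start the photoreceptor programme, varied little across the 5 arrays by their brightest probe sets. Otx2 (1425926_a_at) read 11.40, 11.33 and 11.53 in wild-type replicates 1, 2 and 3, and 11.35 and 11.35 in knockout replicates 1 and 2. The knockout values lay inside the wild-type range, and the change was -0.07 (SE 0.10, 95% interval -0.31 to 0.17, limma adjusted p = 1.0). OTX2 is also made by the pigment epithelium, whose 9 markers differed between arrays. Their median lay 0.49 above the wild-type mean in wild-type replicate 2 and at -0.66 in knockout replicate 1. Otx2 lay at -0.09 and -0.07 in these arrays. The part of pigment epithelium RNA in the Otx2 values was not tested. The brightest Crx probe set (1418705_at) read 12.31, 12.25 and 12.31 in wild type and 12.29 and 12.25 in the knockout. These 5 values span 0.06, a range at percentile 0.544 of the ranges of all probe sets. Its change was -0.02 (SE 0.09, 95% interval -0.24 to 0.20), and the dimmer Crx probe set (1449185_at) stood at 0.06 (SE 0.15), with values of 10.85 to 11.33 in wild type and 11.22 and 11.12 in the knockout.

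Nrl, the switch for rod fate, did not separate the genotypes. Its probe set (1450946_at) read 13.68, 13.69 and 13.69 in wild type, against 13.55 and 13.79 in knockout replicates 1 and 2. These thus lay on either side of the closely grouped wild-type values. The change was -0.02 (SE 0.11, 95% interval -0.26 to 0.23, adjusted p = 1.0 by limma).

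Esrrb gave the member probe set with the smallest p, without passing the test. Its brightest probe set (1436926_at) read 10.53, 10.47 and 10.62 in wild type against 10.05 and 10.02 in the knockout. Both knockout values lay below all wild-type values, by a change of -0.51 (SE 0.10, 95% interval -0.73 to -0.28, unadjusted p = 8.47e-04, limma adjusted p = 1.0). That interval is for a single probe set and is not adjusted for the number tested. The other Esrrb probe sets overlapped between groups. The dimmest (1422986_at) read 6.82, 6.71 and 7.50 in wild type, against 7.10 and 6.23, a change of -0.34 (SE 0.29). The third (1441921_x_at), whose suffix marks probes shared with sequences of other transcripts, stood at -0.04 (SE 0.12), with 8.28 to 8.63 in wild type and 8.39 and 8.45 in the knockout. Averaged over its probe sets, Esrrb stood at -0.30. With a variance trend and robust fit, the adjusted p of the brightest probe set was 0.48, and it ranged from 0.48 to 1.0 over the alternatives.

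Rorb, the orphan receptor upstream of NRL, had the widest range over the 5 arrays among the brightest probe sets of the 9 genes, and its 3 probe sets disagreed on which array was low. The brightest (1455799_at) read 11.26, 11.30 and 9.78 in wild type, and 10.84 and 10.56 in the knockout. The second (1425162_at) read 10.21, 10.11 and 9.19 in wild type, and 9.80 and 9.11 in the knockout. Wild-type replicate 3 was thus the lowest array for the brightest. For the second, knockout replicate 2 was the lowest, with wild-type replicate 3 just above it. The third (1439862_at) was level in wild type, at 9.22, 9.32 and 9.21, against 9.14 and 8.33 in the knockout, so that knockout replicate 2 was low. The changes were -0.08 (SE 0.41, 95% interval -1.02 to 0.86), -0.38 (SE 0.31) and -0.52 (SE 0.21, unadjusted p = 0.0365, adjusted p = 1.0 by limma). The range of the brightest probe set over the 5 arrays, 1.52, stands at percentile 99.8 of all probe sets, so a change well under that size could not be detected here. Its direction turned with the arrays used: without wild-type replicate 3 the change was -0.58, and without wild-type replicate 1 or 2, or without knockout replicate 2, it was 0.16, 0.18 or 0.06. Where along the transcript each probe set lies was not analysed here.

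Neurod1, a basic helix-loop-helix factor of photoreceptors and amacrine cells, was lowest in knockout replicate 2 by both of its probe sets. The brightest (1426413_at) read 12.57, 12.67 and 12.78 in wild type, against 12.71 and 12.37 in the knockout. The other (1426412_at) read 11.83, 11.94 and 11.94 in wild type, then 11.88 and 11.64. Knockout replicate 1 lay inside the wild-type range for both. Changes were -0.13 (SE 0.13, 95% interval -0.43 to 0.17) and -0.15 (SE 0.11), and without knockout replicate 2 the brightest stood at 0.04. For 8 amacrine markers the median deviation from wild type was 0.03 in that array and 0.06 in the other knockout array.

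**Figure D2:**
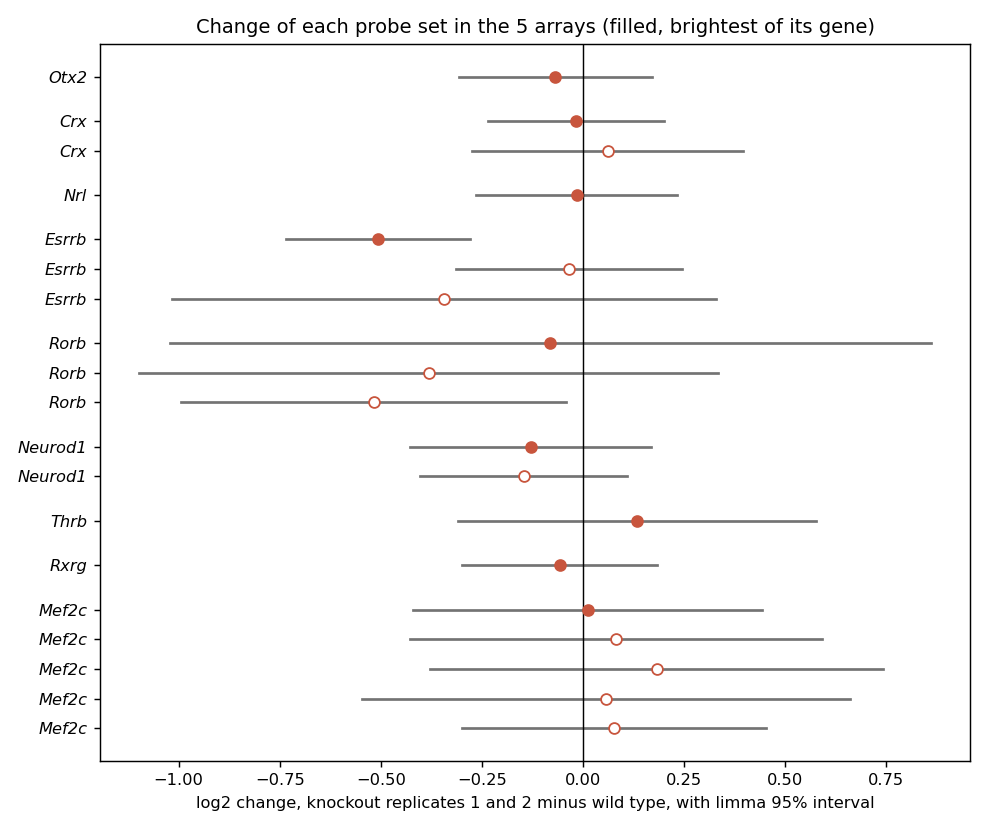
Log2 change of each of the 19 probe sets in knockout replicates 1 and 2 against 3 wild-type arrays (x axis), with the limma 95% interval, not adjusted for the number of probe sets, as a bar; filled points are the brightest probe set of each gene. The brightest Esrrb probe set, at -0.51, and the third Rorb probe set, at -0.52, are the only ones whose bars leave out 0, and neither passed after adjustment.

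Thrb and Rxrg, the nuclear receptors of cones, gave dim signals that overlapped between groups. Thrb (1422202_at) read 5.92, 5.51 and 6.17 in wild type, and 6.17 and 5.83 in the knockout, a change of 0.13 (SE 0.19, 95% interval -0.31 to 0.58). Rxrg (1418782_at) read 6.10, 6.00 and 5.89 in wild type, and 5.97 and 5.90 in the knockout, a change of -0.06 (SE 0.11, 95% interval -0.30 to 0.18). Both genes lay above the highest Bacillus control in every array, by little: the lowest Thrb value among the 5 arrays was 5.51, on the array whose control reached 4.60. All knockout values of both genes fell within the wild-type range. The Thrb direction turned without wild-type replicate 2 (-0.04) or knockout replicate 1 (-0.04).

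Mef2c differed between the knockout arrays rather than between the genotypes. Its brightest probe set (1424852_at) read 8.26, 8.33 and 8.47 in wild type, against 8.02 and 8.71 in knockout replicates 1 and 2. Knockout replicate 2 was the highest of the 5 arrays for 5 of the 5 Mef2c probe sets, and knockout replicate 1 was the lowest for 4 of 5, with wild-type replicate 3 lowest for 1421027_a_at. The median of the 5 probe sets, as a deviation from the wild-type mean, was -0.31 and 0.47 in these arrays, against -0.21 to 0.09 in wild type. Over the 5 arrays the changes were 0.01 to 0.18 (SE 0.16 to 0.26), since the knockout arrays lay on opposite sides. Without knockout replicate 2 the brightest probe set stood at -0.33 (adjusted p = 0.98 by limma), and without knockout replicate 1 at 0.36 (0.959).

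Muscle markers, like Mef2c, were highest in knockout replicate 2 and lowest in knockout replicate 1 by their median deviation. Their order in wild type differed. In wild-type replicates 1, 2 and 3 the Mef2c median stood at 0.09, 0.00 and -0.21, and the muscle median at -0.10, 0.35 and -0.26. As a median deviation from wild type, 10 muscle markers stood at 2.12 in knockout replicate 2, at -0.39 in the other knockout array and at -0.26 to 0.35 in the wild-type arrays. Their mean level was 6.70, 4.26 and 4.33 to 4.93 in the same order. Of these markers 0 lay at or below the highest control in knockout replicate 2, and 4 to 6 did in the other 4 arrays. The myosin gene Myh4, a defining marker of fast muscle, read 5.92 in knockout replicate 2 and 2.81 to 3.08 in the other 4 arrays, below their controls, and skeletal actin (Acta1) read 8.93 against 6.52 to 7.26. For knockout replicates 1 and 2 in turn, vessel markers deviated by 0.06 and 0.22 and microglia markers by 0.47 and 0.06. The part of muscle, vessel or microglial RNA in the Mef2c values was not tested.

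**Figure D3:**
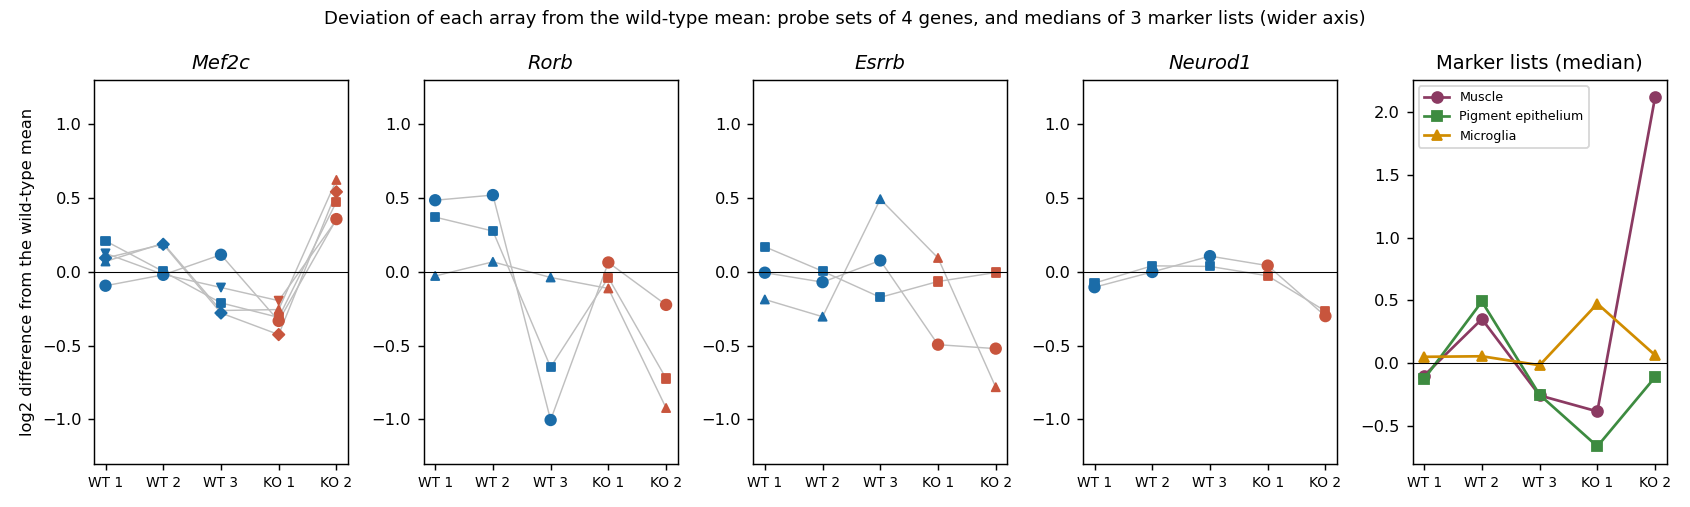
Log2 difference of each of 5 arrays from the wild-type mean for the probe sets of Mef2c, Rorb, Esrrb and Neurod1 (1 marker shape per probe set, blue wild type, red knockout, lines joining a probe set), and the median of the muscle, pigment epithelium and microglia marker lists on a wider axis. In knockout replicate 2 all 5 Mef2c probe sets lie above the wild-type mean and the muscle median lies at 2.12.

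Genes that these factors are known to drive, and factors that work beside them, were read from the same fit by their brightest probe set. Of 27 measured rod targets 0 passed in either direction (0.011% of all genes passed), and 23 lay below 0, where 48.1% of all genes did, with a median of -0.07. At an unadjusted p under 0.05 stood 2 rod targets, both lower (1.17% of all genes). Prph2, the disc rim protein peripherin, read 12.84, 12.77 and 13.09 in wild type against 12.27 and 12.00 (-0.77, SE 0.14), and Kcnj14, a potassium channel gene, stood at -0.32 (SE 0.12). Both had groups that did not overlap, as 16.5% of all genes had, and neither passed (adjusted p = 1.0 by limma for each). Knockout replicate 1 was the lower array for this list as a whole: its median deviation was -0.13 there and 0.01 in the other.

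Cone targets lay on both sides. Of 15 measured, 0 passed, 8 lay above 0 and 7 below, the median was 0.03 (-0.0092 without wild-type replicate 2), and none stood at an unadjusted p under 0.05 (2.59% of all genes did). Gnb3, a cone transducin subunit, stood at 0.19 (SE 0.17), and Slc24a2, a sodium-calcium exchanger gene, at 0.12 (SE 0.13). The middle-wavelength opsin gene Opn1mw stood at 0.11 (SE 0.12). The phosphodiesterase gene Pde6c stood at -0.10 (SE 0.12).

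Among 44 measured co-regulators and related factors 0 passed, 18 lay above 0 and 26 below, and the median was -0.02. The only one at an unadjusted p under 0.05 was Bhlhe40, a clock repressor, which lay higher (1.42% of all genes did) at 0.33 (SE 0.10), with 8.78 to 8.87 in wild type and 9.19 and 9.08 in the knockout. Rax, the eye-field homeobox gene that acts with CRX in photoreceptors, stood at -0.22 (SE 0.10), the retinal co-repressor gene Samd11 at -0.36 (SE 0.17) and the zinc finger gene Casz1, a regulator of rod maturation, at -0.25 (SE 0.14). Among relatives of the members, Mef2d stood at -0.14 (SE 0.11), Rora at -0.04 (SE 0.10), Esrrg at -0.03 (SE 0.12), Neurod4 at 0.10 (SE 0.10), Thra at -0.03 (SE 0.09) and Rxra at -0.10 (SE 0.11). These relatives were chosen after their values were seen.

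In the array labelled knockout replicate 3, Nrl, Crx, Esrrb, Rorb and Neurod1 lay far below the other 5 arrays, while Otx2 and Mef2c lay closer. Thrb and Rxrg lay 1.34 and 0.67 below the other arrays and stayed above the highest control of that array. Their means in the other arrays lay only 1.79 and 1.84 above that control. A drop of more than 2 could thus not have been measured for these dim genes. As 1 array it allows no test. By brightest probe set, 5 of 9 genes lay more than 2 log2 units below the mean of the other arrays, where 4.49% of all genes did, and 10 of 19 probe sets did, where 3.65% of all probe sets did. None of the 19 lay as far above, where 5.4% of all probe sets did. The median difference of the 19 was -3.20, against -0.08 for all probe sets. Of the 19, 18 lay below the range of the other 5 arrays (43.1% of all probe sets did).

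By their brightest probe sets Nrl, Crx and Esrrb could not be told from background there. Nrl read 4.04, under the highest control of that array (4.13), against 13.68 ± 0.09 (SD, n = 5) elsewhere. Against that control the Nrl signal was at least 749-fold lower. Crx read 3.95 by its brightest probe set, also under the control, against 12.28 ± 0.03 (SD, n = 5), which is at least 284-fold lower, and 4.79 by its dimmer probe set. Esrrb read 3.26 by its brightest probe set against 10.34 ± 0.28 (SD, n = 5), at least 73.8-fold lower. Its probe set 1441921_x_at kept 6.81, above the control. What that probe set binds there was not tested. The Rorb probe sets read 4.89, 3.56 and 3.93, of which the brightest lay above the control and 5.85 below the other arrays. In all, 6 of 19 probe sets lay under the control in this array, and 0 did in the other 5.

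Signal remained for the other members. Neurod1 read 7.64 and 7.26, well above the control, although 4.98 and 4.58 below the other arrays. Otx2 read 9.78 against 11.39 ± 0.08 (SD, n = 5), a difference of -1.61 or 3.06-fold lower. Thrb read 4.58 and Rxrg 5.30, which is 1.34 and 0.67 below the other arrays. Mef2c spanned 0: its probe sets lay between -1.05 and 0.07 of the other arrays, and 1451506_at, at 8.07, was the only member probe set inside their range. These differences kept their sign under each of the 3 other scalings and with wild type alone as the reference, for the brightest probe set of each gene.

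Most known targets of these factors were also lower in this array. Of 27 rod targets, 26 lay more than 2 log2 units lower, with a median of -8.18, and recoverin (Rcvrn) lay 10.43 lower, Gnat1 9.93 lower and phosducin (Pdc) 9.78 lower. Of 15 cone targets, 12 lay as far below, among them Opn1sw at -6.99 and Gnat2 at -6.64. Related factors went both ways: of 44, 9 lay more than 2 units lower and 3 higher (7.44% of all genes were that far higher). The basic helix-loop-helix gene Neurod4 lay at -6.21, and the retinal co-repressor genes Samd7, which is also among the rod targets, and Samd11 at -6.20 and -6.17. The 3 higher ones were Sox11, a factor of immature neurons, at 4.93, Otx1, the relative of Otx2, at 3.25, and Mef2b, the relative of Mef2c, at 2.32. They were chosen after their values were seen.

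Markers of nasal tissue were high in the same array. Of 9 olfactory neuron markers, 8 lay more than 2 units above the other arrays and 0 lay at or below the control. Their mean level was 11.34 there against 6.13 to 6.27 in the other 5 arrays. The defining marker Omp read 12.61 against 5.44 ± 0.17 (SD, n = 5). Of 7 nasal gland and airway markers, 6 lay as far above and 1 lay at or below the control, with a mean level of 11.15 against 3.65 to 3.82, and Obp1a read 14.12 against 3.07 ± 0.26 (SD, n = 5). Relative to the wild-type mean, the median of microglia markers was 1.37 in this array, that of vessel markers 1.18 and that of muscle markers -0.43. Both the microglia and the vessel list went both ways. Of 7 microglia markers, 1 lay more than 2 units above the other arrays (Tyrobp, 2.48) and 1 as far below (P2ry12, -2.08). Of 7 vessel markers, 1 lay as far above (Cldn5, 2.96) and 1 as far below (Kdr, -2.43). Of all genes 7.44% lay as far above and 4.49% as far below. These named genes were chosen after their values were seen. The part of nasal tissue, microglia or vessels in the remaining Neurod1, Otx2 and Mef2c signal was not tested.

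**Figure D4:**
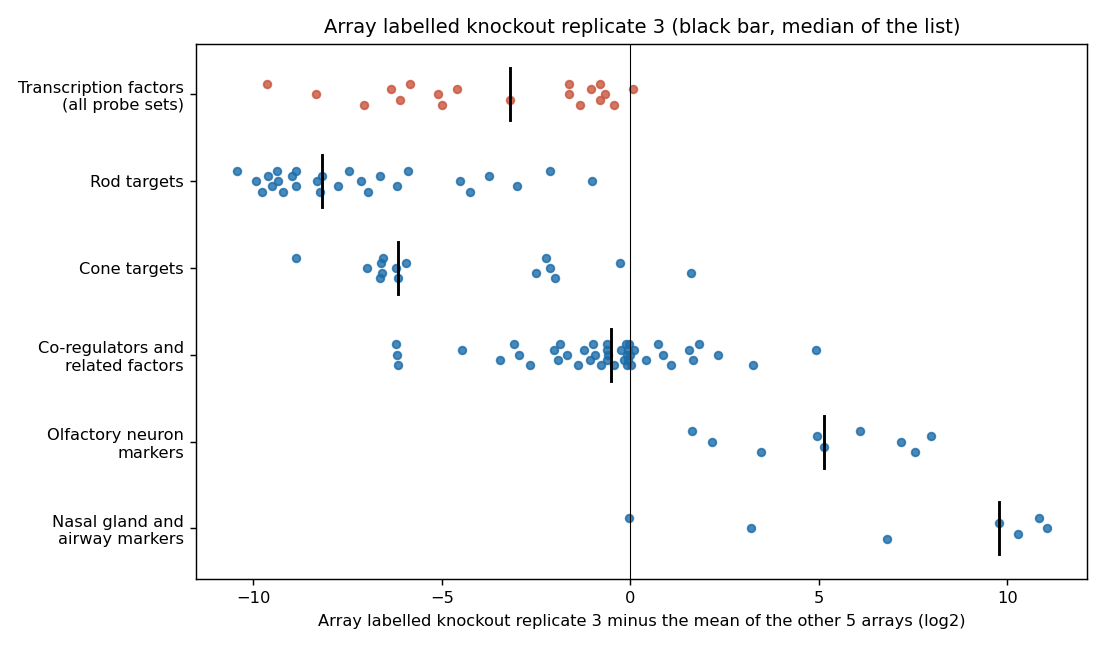
Difference of the array labelled knockout replicate 3 from the mean of the other 5 arrays (x axis, log2) for the 19 transcription factor probe sets and for genes of 5 lists, 1 point each, with the list's median as a black bar. The factor probe sets reach from -9.64 (Nrl) to 0.07 (Mef2c), rod targets have a median of -8.18 and nasal gland markers one of 9.77.

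With all 6 arrays, the standard error of each of the 19 probe sets was larger than with 5. By limma 0 of 19 probe sets passed, and 0 of all 45037 did (0%). At an unadjusted p under 0.05 stood 0 of 19, and 1% of all probe sets. Changes ran from -3.23 (Nrl, SE 2.71, 95% interval -9.97 to 3.52) to 0.07 (Mef2c, 1451506_at), with a median of -1.34 against -0.02 for all probe sets, and 17 of 19 lay below 0 (53.5% of all). Crx stood at -2.79 (SE 2.34), Esrrb at -2.76 (SE 1.91), Rorb at -2.02 (SE 1.69), Neurod1 at -1.76 (SE 1.39), Otx2 at -0.59 (SE 0.45), Thrb at -0.34 (SE 0.45), Rxrg at -0.27 (SE 0.20) and Mef2c at -0.26 (SE 0.30), each by its brightest probe set. The same 2 probe sets of Esrrb and Rorb had groups that did not overlap, where 8.32% of all probe sets had none, 4.54% lower and 3.79% higher.

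Genes whose values followed each member most closely over the 6 arrays were found by the Euclidean distance between centred log2 values of brightest probe sets, a description without a test. For Nrl they were the rod genes Pde6b (distance 0.17) and Sag (0.24) and the retinoid-binding protein gene Rbp3 (0.27). For Crx they were Mgarp (0.06), the photoreceptor chaperone gene Aipl1 (0.13) and Mir124-2hg (0.21). Esrrb lay nearest to A930003A15Rik (0.41), the rod transporter gene Abca4 (0.46) and Kcnj14 (0.48), and Neurod1 to Adcy1 (0.27), Lamp5 (0.30) and Lrtm1 (0.30). Mef2c lay nearest to Med13l (0.13), which read 10.72 to 11.23 over the 5 arrays, lowest and highest in the knockout. Otx2 lay nearest to Zcchc18 (0.07) and Zc4h2 (0.08), Rxrg to Zfp974 (0.08) and Thrb to Epha6 (0.22). No gene followed Rorb as closely: the nearest, the dopamine receptor gene Drd4, lay at 1.03. For every measured member, Otx2, Rxrg, Thrb and Mef2c included, the array labelled knockout replicate 3 holds most of the variation that these distances compare.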

How the data were processed

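Retinal total RNA was made into biotin-labelled cRNA for 1-colour Affymetrix arrays, per the labels' protocols. The submitters' processing notes name RMA, and the deposited log2 values are its output: background-corrected, quantile-normalized and summarised per probe set (software and chip definition: not given in the sources used here). Because RMA equalises the arrays' distributions, it hides any global change in RNA amount. Of 45101 probe sets, 64 controls were left out. The annotation names 1 gene for 34945 of the rest, several for 932 and none for 9160; only the first were named, and 9 of 9 member genes matched RefSeq (GRCm38.p6) by Entrez identifier.

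Groups were compared by limma 3.58.1 (lmFit, eBayes; R 4.3.3). Tests were two-sided with Benjamini-Hochberg adjustment over all 45037 probe sets and a threshold of 0.05, and the procedure was tested on simulated data. Members and lists are read from that fit. A gene of a list stands for its brightest probe set, the one with the highest mean over the 6 arrays; no p is adjusted over a list. Named genes are the members, up to 4 of each list by smallest p, up to 3 by largest difference in the array labelled knockout replicate 3, and up to 3 nearest patterns; others are marked as chosen later. The members and lists were chosen with earlier results of these data known. Muscle, lens, pigment epithelium, bipolar, amacrine, horizontal, ganglion, Müller, microglia, vessel, olfactory and nasal markers were read the same way, and 0 passed in the 5 arrays. Median changes were 0.95 (muscle, where the knockout arrays lay on opposite sides), -0.91 (lens) and -0.41 (pigment epithelium). Without wild-type replicate 2, an alternative added after seeing the data, lens stood at -0.02 and pigment epithelium at -0.08. The medians were 0.28 (microglia), 0.14 (vessel), 0.02 (bipolar), 0.03 (amacrine), -0.06 (horizontal), 0.01 (ganglion), -0.04 (Müller), 0.04 (olfactory) and -0.01 (nasal). Figures were drawn with matplotlib 3.10.9.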

Additional observations from a re-analysis of the deposited data

How the results depend on the processing

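The settings varied were the variance model (trend and robust), array weights, a second quantile normalization, median and 75th percentile centring, a filter on dim probe sets, the replicate block, 1 row per gene (brightest or mean), the threshold (0.1), a minimum fold (1.5) and the arrays, each left out once. The count of member probe sets called was 0 in all of them, with 5 and with 6 arrays, as was that of targets and regulators with 5. The smallest adjusted p of a member was 0.48 with 5 arrays and 0.566 with 6. Calls over all probe sets, 5 in the 5 arrays, became 2 with the brightest and 1 with the mean probe set per gene, where fewer rows are tested, and 4 to 11 with an array left out (11 without knockout replicate 1, 9 without knockout replicate 2). There the lone knockout array takes its spread from wild type. The 0 calls of the 6 arrays became 5 with array weights, 1 at a threshold of 0.1 and 0 to 5 with an array left out (5 without the array labelled knockout replicate 3). Of 126 alternative values of the 9 genes with 5 arrays, 12 changed sign, none called: Crx was 0.0221 with the mean of its probe sets, Nrl was 0.0009 with 75th percentile centring, and the other 10 came from leaving out an array, where Crx ran from -0.0408 to 0.0065, Mef2c from -0.33 to 0.36, Neurod1 from -0.30 to 0.0418, Nrl from -0.14 to 0.11, Rorb from -0.58 to 0.18 and Thrb from -0.0439 to 0.30. With 6 arrays 4 of 135 changed sign: with array weights Mef2c was 0.19 and Thrb 0.083, and with an array left out Mef2c ran from -0.57 to 0.012 and Thrb from -0.66 to 0.13. The cause was not tested. Whether replicate numbers pair the samples could not be told. Deviations of same-numbered arrays from their group means correlated at -0.06, -0.03 and -0.10. The knockout mean used there includes the array labelled knockout replicate 3, which dominates these deviations. With the replicate block 6 probe sets were called in the 5 arrays and 0 in the 6, and no member was; Rorb stood at -0.58 and Esrrb at -0.47 with it.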
